A study of Mus musculus with 4 samples.

Results

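Dpp4, Pi16, Cd55, Sema3c and Anxa3 are 5 genes used to mark the early progenitor end of the fat stroma. They were taken by symbol from the 32285 genes of each count matrix, all 5 were found, and their levels and their joint presence in single cells were described in 4 libraries of cultured mouse fat cells.

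White adipose tissue holds fibroblast-like adipose stem and progenitor cells (ASPCs). In vivo, a DPP4-positive pool in the outer tissue layers is held to be an uncommitted reserve that gives rise to committed preadipocytes. Dpp4 encodes a membrane-anchored dipeptidyl peptidase, and Cd55 encodes decay-accelerating factor, a lipid-anchored inhibitor of complement on the cell surface. Pi16 encodes a peptidase inhibitor of the CAP family and Sema3c a secreted class 3 semaphorin that signals through neuropilins and plexins. Anxa3 encodes an annexin, a protein that binds phospholipid membranes in the presence of calcium and is mostly found inside the cell. Neither surface protein is particular to fat: DPP4 is also known from epithelia and T cells, and CD55 from blood and endothelial cells.

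The study compared de-differentiated fat (DFAT) cells with ASPCs from a subcutaneous depot, inguinal white adipose tissue (iWAT), and a visceral depot, epididymal white adipose tissue (eWAT). The mice were C57BL/6J males on chow diet, and their age and the number pooled per library were not given in the sources used here. DFAT cells were grown out of floating mature adipocytes in ceiling culture, and the ASPC groups were cultured cells of the stromal vascular fraction (SVF), as the labels name them. All 4 groups were primary cultures without a genetic label for their origin. The study addressed carry-over of stromal cells in separate lineage-labelled cultures, which were not analysed here. There was 1 library each of iWAT DFAT, eWAT DFAT, iWAT ASPC and eWAT ASPC, without replicates. No test between groups was therefore possible, and every 95% interval covers counting error only.

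The limits on UMIs, genes and mitochondrial share kept 28262 cells, between 6464 and 7629 per library, with a median of 22111 to 27617 UMIs (unique molecular identifiers, 1 per captured RNA molecule). Library pairs shared between 13 and 20 cell barcodes. At least 3 of 8 adipose stromal markers were found in 95.1% of iWAT DFAT, 94.3% of iWAT ASPC and 93.7% of eWAT ASPC cells, but in 68.0% of eWAT DFAT cells, so the eWAT DFAT library stood apart from the other 3 in the markers that define the labelled cell type. Cells with 3 or more markers of another type made up 0.708% of iWAT DFAT, 5.03% of eWAT DFAT, 2.57% of iWAT ASPC and 8.29% of eWAT ASPC cells. Levels are given as UMIs of a gene per 1000000 UMIs of the library's cells (CPM). Because each molecule was read at its 3′ end, a level is compared between libraries and not between genes.

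The 5 genes lie on 4 chromosomes of the mouse build GRCm38 and all are protein coding in the GENCODE annotation. Dpp4 spans chr2:62330073-62412231 on the minus strand and Cd55 chr1:130439027-130462744 on the minus strand. Pi16 spans chr17:29317680-29330593, Sema3c chr5:17574281-17730268 and Anxa3 chr5:96793339-96845966, each on the plus strand. Sema3c and Anxa3 share a chromosome but not a neighbourhood. Dpp4 has its paralogue Fap, another cell surface peptidase, 88.7 kb away. Cd55 has its near-identical copy Cd55b 16.0 kb away, and the count of either gene is uncertain where a read fits both. Cd55b was listed at 0.0301 to 0.0817 CPM.

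The 250 bases before the annotated start of Dpp4 and Cd55, the surface pair that was found together in the same cells more often than their separate shares give in 3 of 4 libraries, or 2 of 4 without cells of other types, are shown 5′ to 3′ on the gene's own strand from the RefSeq table for GRCm38.p6. Dpp4 corresponds to chr2:62412232-62412481 and Cd55 to chr1:130462745-130462994, both on the minus strand. Capitals mark matches of the motifs searched on both strands.
Dpp4: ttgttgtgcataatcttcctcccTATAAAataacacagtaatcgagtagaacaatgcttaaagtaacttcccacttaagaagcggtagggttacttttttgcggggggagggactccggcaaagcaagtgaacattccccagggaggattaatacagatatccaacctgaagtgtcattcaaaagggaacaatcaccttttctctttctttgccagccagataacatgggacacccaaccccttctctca
Cd55: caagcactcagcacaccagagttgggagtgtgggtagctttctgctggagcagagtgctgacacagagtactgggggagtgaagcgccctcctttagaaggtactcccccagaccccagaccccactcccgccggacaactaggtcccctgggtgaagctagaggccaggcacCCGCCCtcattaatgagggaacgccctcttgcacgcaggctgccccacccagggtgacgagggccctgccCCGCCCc
The Dpp4 window held 1 TATAAA match, which starts 227 bases before the start, and no match of the other 4 motifs. The Cd55 window held 2 matches of GGGCGG, read on the other strand, 77 and 7 bases before the start, and no match of the other 4. Of 32851 RefSeq promoters, the same window held TATAAA in 12.4%, CCAAT in 33.8%, GGGCGG in 32.7%, CACGTG in 6.02% and TGACTCA in 4.46%. The G and C content was 43.6% before Dpp4 and 64% before Cd55. The Cd55 window lies inside the gene model of Gm16083, which overlaps the 5′ end of Cd55 on the opposite strand. The RefSeq windows of Sema3c and Pi16 lie inside the GENCODE gene spans given above and are not described. Anxa3 was not matched in the promoter table.

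Among the surface genes, Dpp4 was at 15.5 CPM in iWAT DFAT (95% interval 14.9 to 16.0), 3.01 in eWAT DFAT (2.77 to 3.27), 1.51 in iWAT ASPC (1.34 to 1.69) and 9.03 in eWAT ASPC (8.61 to 9.46). The iWAT DFAT library was the highest and iWAT ASPC the lowest, and no neighbours in the order overlapped in their intervals. With every cell thinned to 4000 UMIs, Dpp4 was seen in 5.19% of iWAT DFAT cells, 1.11% of eWAT DFAT, 0.835% of iWAT ASPC and 3.57% of eWAT ASPC cells. As a measure of free RNA in each library, it was seen in 0 of 129 endothelial-marker cells of eWAT ASPC, which allows up to 2.82%, below the share of all cells there. In eWAT DFAT 0 of 140 such cells allow up to 2.60%, and in iWAT ASPC 0 of 130 neural-marker cells allow up to 2.80%, at medians of 10653 and 10944 UMIs. The shares of both libraries were below these limits. In eWAT ASPC cells without 3 markers of another type, the share was 1.97% (1.64 to 2.35), also below the 2.82% limit of that library. By share, Dpp4 above free RNA was therefore not shown for these cells. By level, Dpp4 in the endothelial-marker cells was at 1.34 CPM (0.28 to 3.93) in eWAT ASPC and 0.477 (0.012 to 2.66) in eWAT DFAT, both below the library's level. In the eWAT ASPC cells without 3 markers of another type, Dpp4 was at 4.89 CPM (4.58 to 5.22). In iWAT ASPC it was at 1.84 CPM in the neural-marker cells, on 3 UMIs in 0.769% of them, so a level above these cells was not shown. In cells of that library with 3 or more adipose stromal markers Dpp4 was at 1.55 CPM (1.38 to 1.74). In the others it was at 0.524 (0.143 to 1.34), on 4 UMIs. The iWAT DFAT library had 17 endothelial-marker cells, where 0 allow a share of up to 19.5%, too few to set its 5.19% against, and 0 UMIs in them allow a level of up to 10.98 CPM beside its 15.5.

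Cd55 was at 11.6 CPM in iWAT DFAT (11.2 to 12.2), 8.17 in eWAT DFAT (7.77 to 8.60), 5.58 in iWAT ASPC (5.26 to 5.92) and 9.69 in eWAT ASPC (9.27 to 10.1). The libraries followed the same order as for Dpp4, over a narrower range and without overlap of intervals. In the same library order, thinned shares were 3.78%, 3.03%, 2.09% and 3.69%, against 13.7% of endothelial-marker cells. Over all libraries 0 of 148 neural-marker cells had Cd55, which allows up to 2.46%, above the iWAT ASPC share. Of these cells 17 were from iWAT DFAT, 1 from eWAT DFAT, 130 from iWAT ASPC and 0 from eWAT ASPC, so the eWAT libraries had no such background. By level, Cd55 was at 0.612 CPM (0.015 to 3.41) in the neural-marker cells of iWAT ASPC, below that library's 5.58. Endothelium is known to carry CD55, so it is no background for this gene.

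Of the secreted genes, Pi16 was at 24.6 CPM in iWAT DFAT (23.9 to 25.3), 1.08 in eWAT DFAT (0.933 to 1.24), 0.587 in iWAT ASPC (0.485 to 0.703) and 1.25 in eWAT ASPC (1.10 to 1.41). It was high in 1 library and low in the other 3, and the intervals of eWAT DFAT and eWAT ASPC overlapped. Thinned detection was 7.28% in iWAT DFAT, and 0.433%, 0.283% and 0.519% in eWAT DFAT, iWAT ASPC and eWAT ASPC. Over all libraries 3 of 335 endothelial-marker cells had Pi16, all from the 49 of iWAT ASPC, and 1 of 148 neural-marker cells, from iWAT DFAT. In eWAT ASPC all 246 Pi16 UMIs were in cells with 3 or more adipose stromal markers and 0 in the other 424 cells. In iWAT ASPC, where Pi16 was at 0.595 CPM in such cells and 0.393 in the others, a level above background was not shown. Pi16 was also spread unevenly over the cells of iWAT DFAT. A single iWAT DFAT cell held 55 Pi16 UMIs, the 5% of cells with most Pi16 held 69.2% of its UMIs there, and the variance of its thinned UMIs was 3.53 times the mean in iWAT DFAT.

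Sema3c was at 48.8 CPM in iWAT DFAT (47.7 to 49.8), 34.1 in eWAT DFAT (33.3 to 35.0), 51.3 in iWAT ASPC (50.3 to 52.3) and 12.6 in eWAT ASPC (12.1 to 13.1). Here both iWAT libraries were high and the eWAT ASPC library was low. Thinned detection was 13.8%, 10.2%, 14.5% and 4.37% in that order, against 2.39% of endothelial-marker and 18.9% of neural-marker cells. Sema3c was thus also frequent in neural-marker cells, and the 5% of cells with most Sema3c held 41.1% to 61.2% of its UMIs.

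Anxa3 was at 297 CPM in iWAT DFAT (294 to 299), 386 in eWAT DFAT (383 to 389), 452 in iWAT ASPC (449 to 455) and 472 in eWAT ASPC (469 to 475). Both DFAT libraries were below both ASPC libraries. Thinned detection was 58.1%, 70.8%, 74.8% and 79.3% in that order, and the 5% of cells with most Anxa3 held no more than 18.3% of its UMIs. Anxa3 was seen in 65.4% of endothelial-marker cells but in 8.53% of the 129 cells with adipocyte markers. It was therefore a broadly present transcript in these cultures, while the other 4 genes were detected in a minority of cells.

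**Figure D1:**
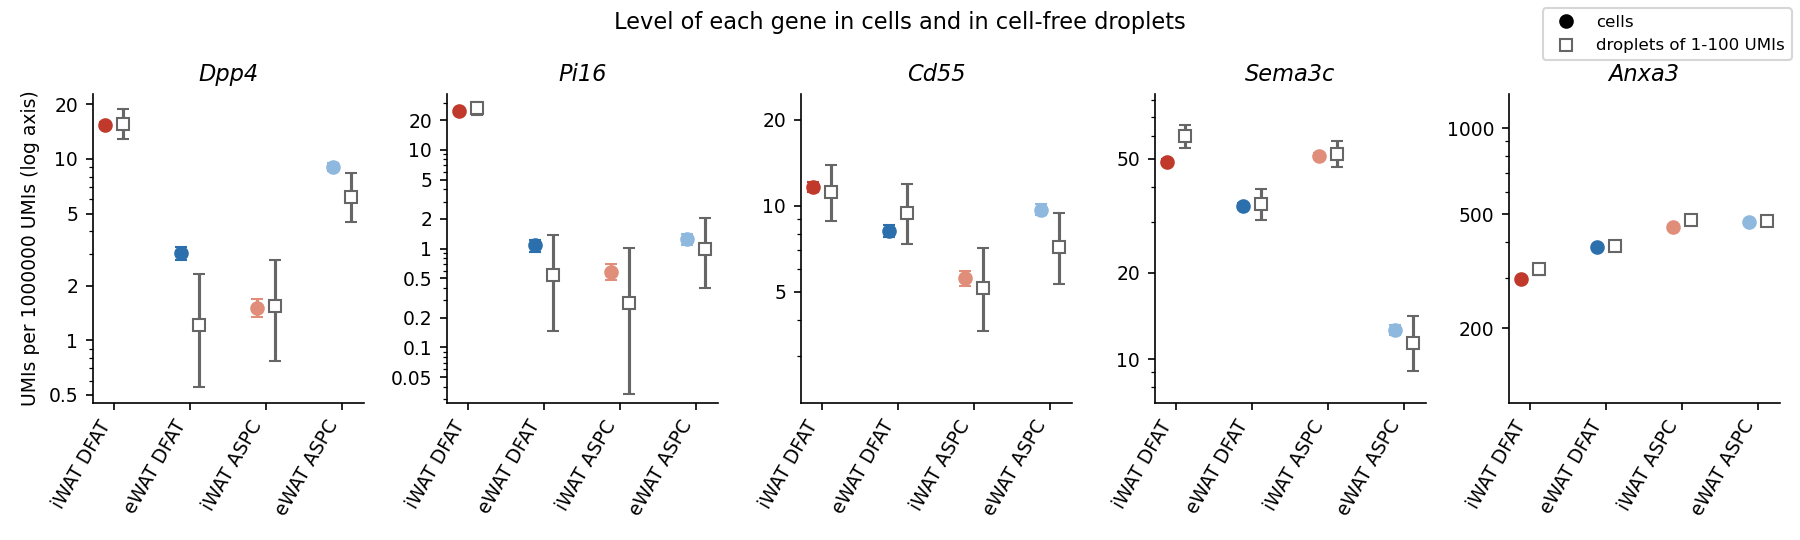
Level of each gene in the 4 libraries (y axis: UMIs per 1000000 UMIs, log scale, a separate range per panel). Filled points are the cells of single libraries, open squares are droplets of 1 to 100 UMIs of the same library, and bars are 95% counting intervals. In cells, Pi16 stands at 24.6 in iWAT DFAT and at or below 1.25 elsewhere, while Anxa3 stays between 297 and 472.

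The first comparison asked how the depots differed among DFAT cells. Pi16 was 22.8-fold higher in iWAT DFAT than in eWAT DFAT, a log2 difference of 4.51 (95% counting interval 4.31 to 4.72), and Dpp4 was 5.14-fold higher, a log2 difference of 2.36 (2.23 to 2.49). Cd55 and Sema3c both differed by 0.51 and Anxa3 by -0.38, short of 2-fold. Thus 2 of 5 members were 2-fold or more higher in iWAT DFAT and 0 lower, where 9.44% of the 13349 genes at 1 CPM or more in the higher library were higher and 6.05% lower. The members' median was 0.51 and that of all genes 0.08.

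Among ASPCs the depots differed in another pattern. Dpp4 was 5.98-fold lower in iWAT ASPC than in eWAT ASPC, a log2 difference of -2.58 (-2.76 to -2.40), and Pi16 2.12-fold lower, at -1.09 (-1.42 to -0.76). Sema3c was 4.07-fold higher in iWAT ASPC, at 2.02 (1.96 to 2.09). Cd55 differed by -0.80 and Anxa3 by -0.06. Hence 1 member was 2-fold or more higher in iWAT ASPC, where 5.09% of 13092 genes were, and 2 were lower, where 5.45% of genes were. The Dpp4 level of iWAT ASPC was not shown to exceed that of its neural-marker cells, nor the Pi16 level to exceed background. The Pi16 difference fell short of 2-fold, at -0.80, when each cell's own CPM was averaged.

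Within iWAT, the comparison of DFAT cells with ASPCs gave the largest differences. Pi16 was 41.9-fold higher in DFAT cells, with a log2 difference of 5.39 (5.12 to 5.67), against an ASPC level that was not shown to exceed background. Dpp4 was 10.2-fold higher, at 3.36 (3.18 to 3.53), against an ASPC level that was not shown to exceed that of neural-marker cells. Cd55 was 2.09-fold higher, at 1.06 (0.96 to 1.17), and went under 2-fold, to 0.98, with TMM scaling (edgeR's trimmed mean of M values). Sema3c differed by -0.07 and Anxa3 by -0.61. Accordingly 3 of 5 members were higher by 2-fold or more, against 11.4% of 13344 genes, and 0 lower, against 7.23%. The iWAT ASPC matrix carries the mark of an older Cell Ranger version than the other 3, and that difference in counting cannot be told apart from the group in either comparison that uses this library.

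Within eWAT, Dpp4 was 3.00-fold lower in DFAT cells than in ASPCs, a log2 difference of -1.58 (-1.72 to -1.45). Sema3c was 2.71-fold higher, at 1.44 (1.37 to 1.503). Pi16 differed by -0.21 (-0.49 to 0.07), and its sign turned, to 0.45, when each cell's own CPM was averaged. Cd55 differed by -0.25 and Anxa3 by -0.29. So 1 member was 2-fold or more higher in eWAT DFAT, where 8.98% of 13315 genes were, and 1 was lower, where 8.15% were. Each library entered 2 of the 4 comparisons, so the comparisons are not independent of each other. With 5 members, 1 gene is a share of 20%.

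**Figure D2:**
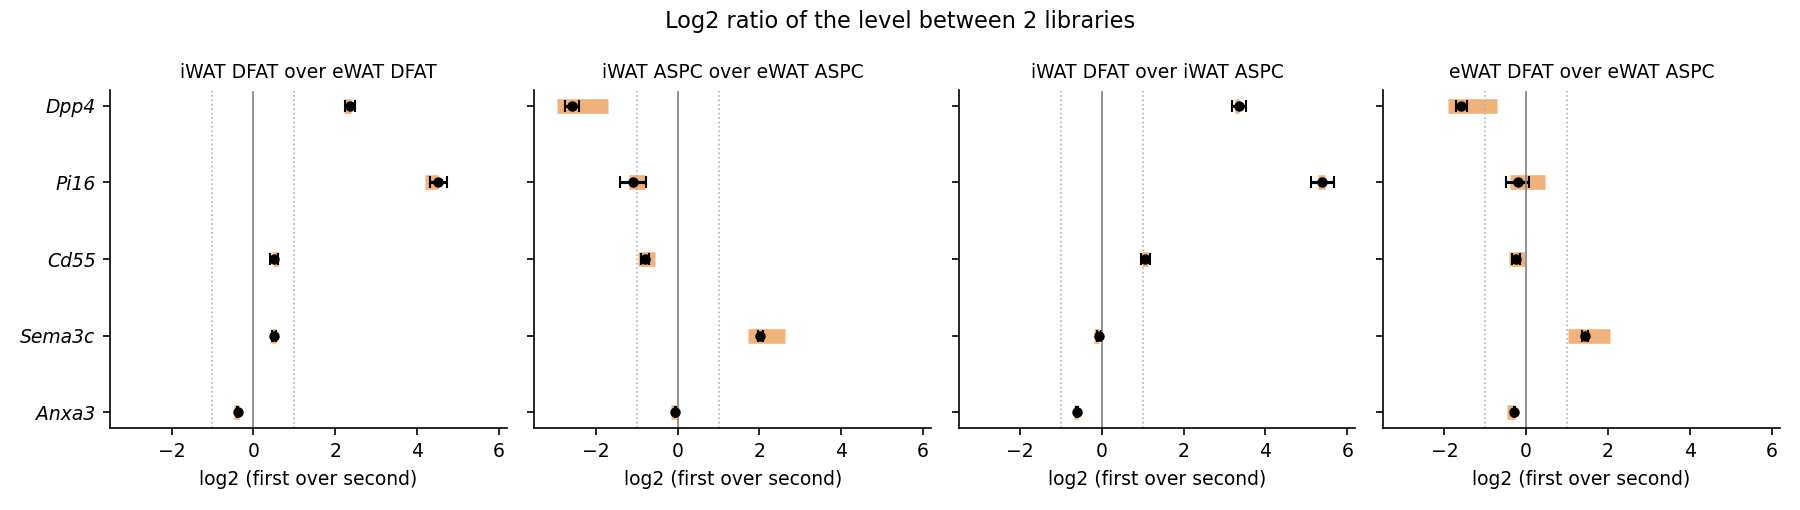
Log2 ratio of each gene in the 4 comparisons (x axis, with the genes on the y axis, where positive is higher in the first-named library). Points with bars are the ratios with 95% counting intervals, orange bars span the values under the alternative settings, and dotted lines mark 2-fold. Dpp4 in the eWAT comparison moves from -1.58 to -0.72 at its weakest.

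The high Dpp4 of the eWAT ASPC library was carried by few cells. The 364 cells with 3 or more of 8 mesothelial markers, 5.40% of that library, held 48.9% of its Dpp4 UMIs. In them Dpp4 stood at 102 CPM (95.8 to 110), against 4.89 (4.58 to 5.22) in cells without 3 markers of any of 6 other types, a log2 difference of 4.39 (4.25 to 4.52). Dpp4 is not among the markers that chose these cells. All 8 mesothelial markers were at 1 CPM or more in the eWAT ASPC library, where they summed to 131 CPM, against 30.8 in eWAT DFAT with 6 at that level. They summed to 5.97 CPM in iWAT DFAT with Msln at 0, and to 72.0 CPM in iWAT ASPC with Muc16 at 0 and 70.7 CPM from Krt19 alone. No cell with 3 mesothelial markers was found in either iWAT library.

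The other members split in these cells. Sema3c was at 108 CPM, against 8.35 in cells without other types' markers, and 36.7% of its UMIs in eWAT ASPC came from them. Cd55 was at 44.0 CPM against 7.83, with 19.5% of its UMIs. Pi16, with 4 UMIs, was at 0.471 CPM against 1.30, and Anxa3 was lower as well, at 284 against 483. Of the 364 cells, 354 also had 3 or more adipose stromal markers, and their median was 18892 UMIs against 28158. In eWAT DFAT, the 30 such cells likewise held Dpp4 at 35.5 CPM, Cd55 at 85.0 and Sema3c at 86.6, with 0 Pi16 UMIs.

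Without the cells of other types, Dpp4 in eWAT ASPC was at 4.89 CPM in place of 9.03, and Sema3c at 8.35 in place of 12.6. The Dpp4 difference between eWAT DFAT and eWAT ASPC was then -0.72 in place of -1.58 and no longer 2-fold, and that between iWAT ASPC and eWAT ASPC was -1.69 in place of -2.58. The Sema3c differences grew to 2.05 within eWAT and 2.62 between the ASPC libraries. The iWAT DFAT values were little touched, with Dpp4 at 15.5 and Pi16 at 24.6 CPM either way.

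**Figure D3:**
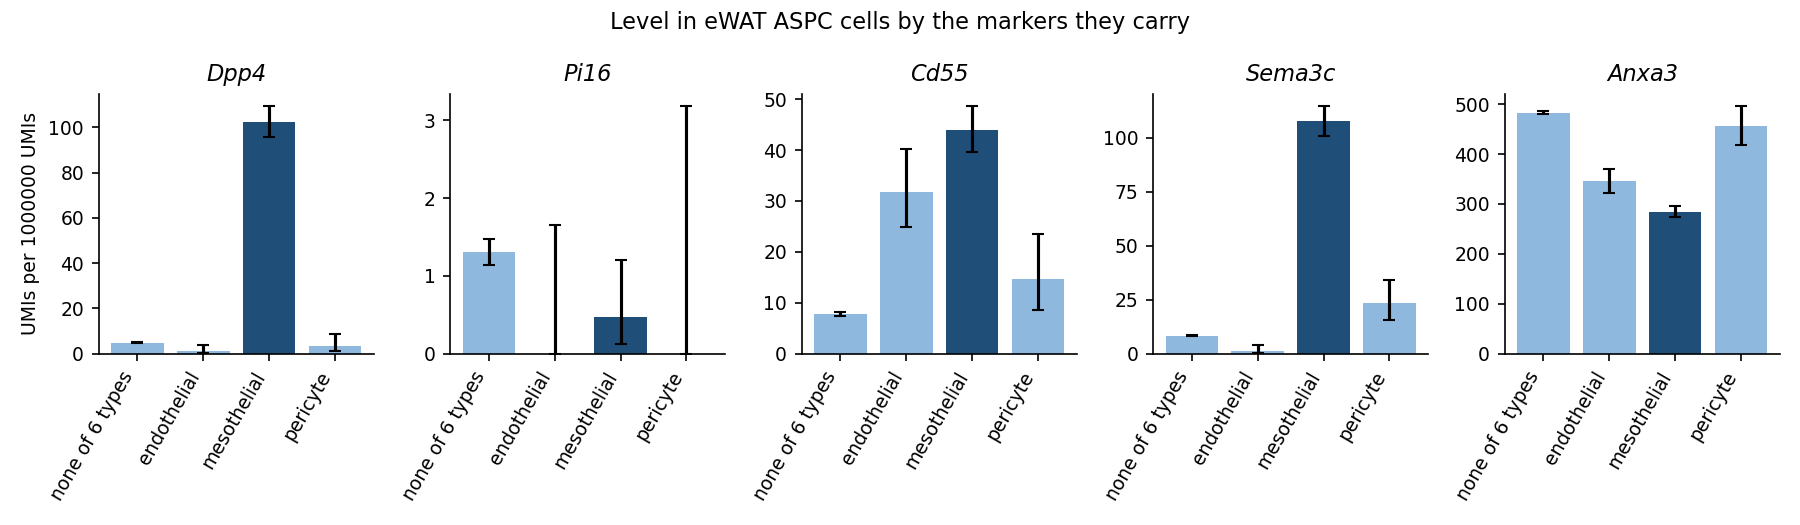
Level of each gene in eWAT ASPC cells with 3 or more endothelial, mesothelial or pericyte markers and in cells with none of 6 other types (y axis: UMIs per 1000000 UMIs, linear, a separate range per panel; bars are 95% counting intervals). Dpp4 reaches 102 and Sema3c 108 in mesothelial-marker cells, against 4.89 and 8.35 in cells of none of the 6 types.

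Endothelial-marker cells were a second carrier, of Cd55. It stood at 31.8 CPM in the 129 such cells of eWAT ASPC and at 19.6 in the 140 of eWAT DFAT, which held 3.71% and 2.70% of the Cd55 UMIs. In the 49 of iWAT ASPC it stood at 62.8 CPM (47.9 to 80.9), with 5.39% of that library's Cd55 UMIs. Within eWAT DFAT, the 2070 cells with fewer than 3 adipose stromal markers had less Dpp4 than the other 4394, 1.10 against 3.83 CPM, and less Pi16, 0.270 against 1.42. Sema3c was the exception, at 42.5 against 30.5 CPM. Among cells with 3 or more adipose stromal markers, eWAT DFAT and eWAT ASPC stood at 3.83 and 9.34 CPM of Dpp4, at 1.42 and 1.30 of Pi16 and at 30.5 and 12.7 of Sema3c, so the directions for Dpp4 and Sema3c were those of all cells. This class of eWAT ASPC still includes 354 of the 364 mesothelial-marker cells, and without cells of other types Dpp4 stood at 4.89 CPM.

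Cell cycle state went with Pi16 and Cd55. Between 22.2% and 32.9% of cells had 3 or more of 8 cycle markers. In iWAT DFAT, Pi16 was at 10.7 CPM in those cells (9.88 to 11.5) and at 31.7 in the rest (30.7 to 32.7), a log2 difference of -1.57. The differences in eWAT DFAT, iWAT ASPC and eWAT ASPC were -1.11, -1.24 and -0.94, on 42, 22 and 36 Pi16 UMIs in cycle-marker cells. The direction was that of iWAT DFAT, on few UMIs, and in iWAT ASPC at a level not shown to exceed background. Cd55 was lower in cycle-marker cells of all 4 libraries, by -0.51, -0.40, -0.75 and -0.68 in the library order used above. In iWAT DFAT the cycle-marker cells had a median of 27077 UMIs, against 20673 in the rest. Thinned Pi16 was there in 155 of the 3815 cells in the upper part by UMIs, split at the median, and in 400 of the 3814 below. The part of UMIs per cell in the Pi16 difference was not tested.

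Dpp4 had no such constant sign, with -0.10 in iWAT DFAT, 0.14 in eWAT DFAT, 0.04 in iWAT ASPC and -0.97 in eWAT ASPC. Without cells of other types, Dpp4 in eWAT ASPC was at 3.37 CPM in the cells with cycle markers and at 5.39 in the others, so the direction there was the same. Sema3c ranged from -0.29 to 0.06 and Anxa3 from -0.01 to 0.29. The cycle markers summed to 628 CPM in eWAT ASPC and to 811 to 878 in the other libraries.

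**Figure D4:**
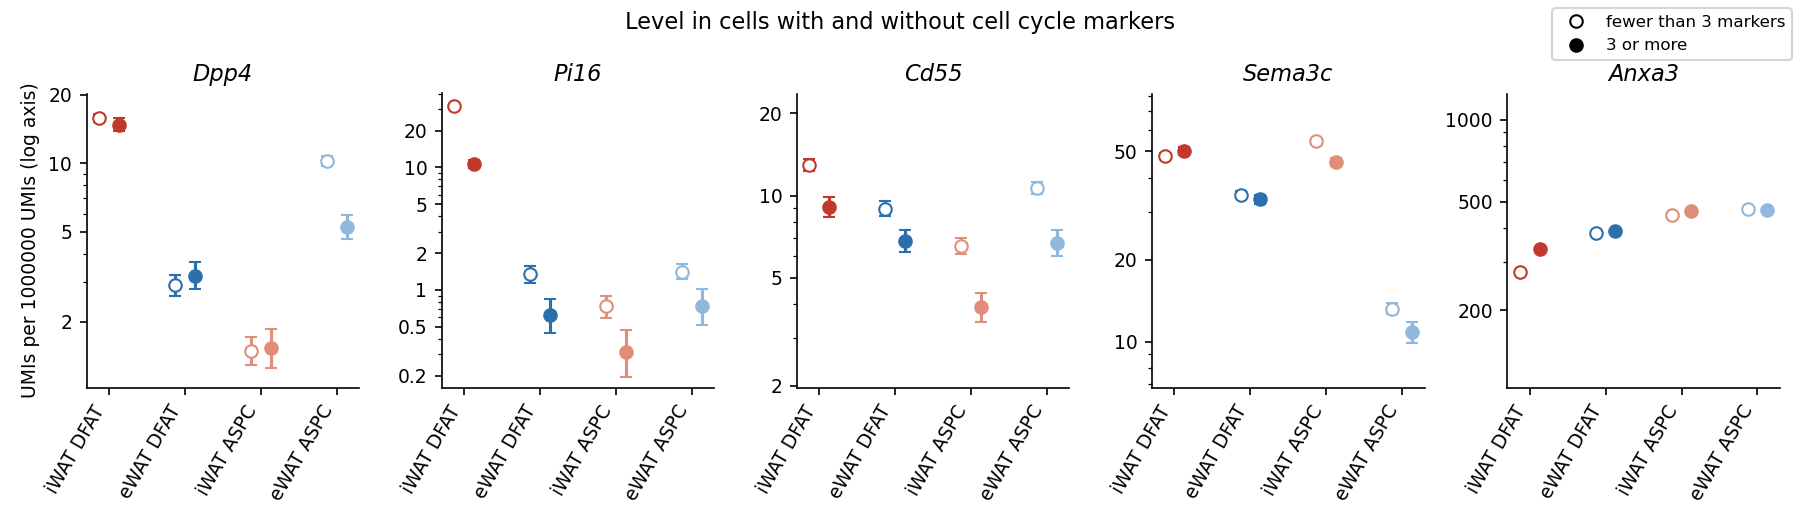
Level of each gene in cells with 3 or more cell cycle markers (filled) and with fewer (open) in each library (y axis: UMIs per 1000000 UMIs, log scale; bars are 95% counting intervals). Pi16 stands at 10.7 in the filled and 31.7 in the open point of iWAT DFAT, and its filled points rest on 22 to 42 UMIs in the other 3 libraries.

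Whether the 5 genes were found in the same cells was asked within each library. With cells thinned to 4000 UMIs, the number of cells holding both genes of a pair was set against the product of their shares, for 10 pairs in each library. Dpp4 and Pi16, the pair most used to name the early pool, were found together in 26 iWAT DFAT cells where 28.8 would follow from the shares, a ratio of 0.90 (0.59 to 1.32). At full depth 270 of 7629 iWAT DFAT cells, 3.54%, had a UMI of both, where 299 would. The pair was at 21 cells in eWAT DFAT, 2 in iWAT ASPC and 28 in eWAT ASPC at full depth, where 6.87, 2.99 and 24.1 would be. Those are ratios of 3.06, 0.67 and 1.16, so in eWAT DFAT the pair was found together more often than its shares give. Thinned, eWAT DFAT had 1 such cell against 0.312, a ratio of 3.21 (0.081 to 17.9).

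Dpp4 and Cd55 were found together more often than their shares give, except in iWAT ASPC. In iWAT DFAT 29 cells had both against 14.9, a ratio of 1.94 (1.30 to 2.79). In eWAT DFAT the ratio was 3.21 (1.29 to 6.61), on 7 cells, and in eWAT ASPC it was 3.03 (2.00 to 4.42), on 27 cells. The iWAT ASPC library had 1 such cell against 1.29. Without cells of other types, eWAT ASPC had 6 cells against 3.43, a ratio of 1.75 (0.64 to 3.81) whose interval included 1, while iWAT DFAT was at 1.93 (1.29 to 2.78) and eWAT DFAT at 3.16 (1.16 to 6.89). When the cells of a library were split at its median UMIs, the ratio in iWAT DFAT was 2.27 (1.35 to 3.59) above it and 1.60 (0.80 to 2.87) below it, and in eWAT DFAT it was 1.94 (0.23 to 7.01), on 2 cells, and 4.34 (1.41 to 10.1).

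Dpp4 and Sema3c shared cells at ratios of 1.49 (1.18 to 1.85) in iWAT DFAT, 1.76 (0.94 to 3.01) in eWAT DFAT and 2.11 (1.27 to 3.30) in iWAT ASPC. The direction in eWAT DFAT turned with depth, from 3.49 (1.74 to 6.25) below the median UMIs to 0.48 (0.058 to 1.74), on 2 cells against 4.14, above it. In eWAT ASPC the ratio was 5.31 (4.01 to 6.90), on 56 cells, and 2.32 (1.0007 to 4.57), on 8 cells, without the cells of other types. The mesothelial-marker cells described above thus held most of that overlap. Cd55 and Sema3c shared cells at 1.82 (1.42 to 2.29) in iWAT DFAT and 2.85 (1.93 to 4.04) in eWAT ASPC, or 2.03 (0.97 to 3.74), on 10 cells, without the cells of other types, and at 1.25 and 1.20 in eWAT DFAT and iWAT ASPC, with intervals that included 1.

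Pi16 behaved otherwise. It shared iWAT DFAT cells with Cd55 at a ratio of 2.10 (1.53 to 2.82), on 44 cells, 8 of them above the median UMIs, where the ratio was 1.48 (0.64 to 2.92), but not with Sema3c, at 0.90 (0.70 to 1.14). With Anxa3 the ratio was 0.65 (0.57 to 0.75). Of the 555 iWAT DFAT cells with Pi16, 38.0% had an Anxa3 UMI, against 59.6% of the cells without Pi16. Dpp4 cells of the same library had Anxa3 more often than others, at 71.2% against 57.3%. Pi16 and Anxa3 stood at 0.60 (0.31 to 1.06), 0.83 (0.44 to 1.41) and 0.94 (0.61 to 1.37) in eWAT DFAT, iWAT ASPC and eWAT ASPC, which had 28, 21 and 35 Pi16 cells. In iWAT ASPC, 6 of the 21 also had Cd55, where 0.438 would follow from the shares, a ratio of 13.7 (5.02 to 29.8), and all 6 were among the cells below the median number of UMIs. Of these 21 Pi16 cells 3 were endothelial-marker cells, a class with Cd55 at 62.8 CPM, and without cells of other types 5 of 18 had Cd55, against 0.361.

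**Figure D5:**
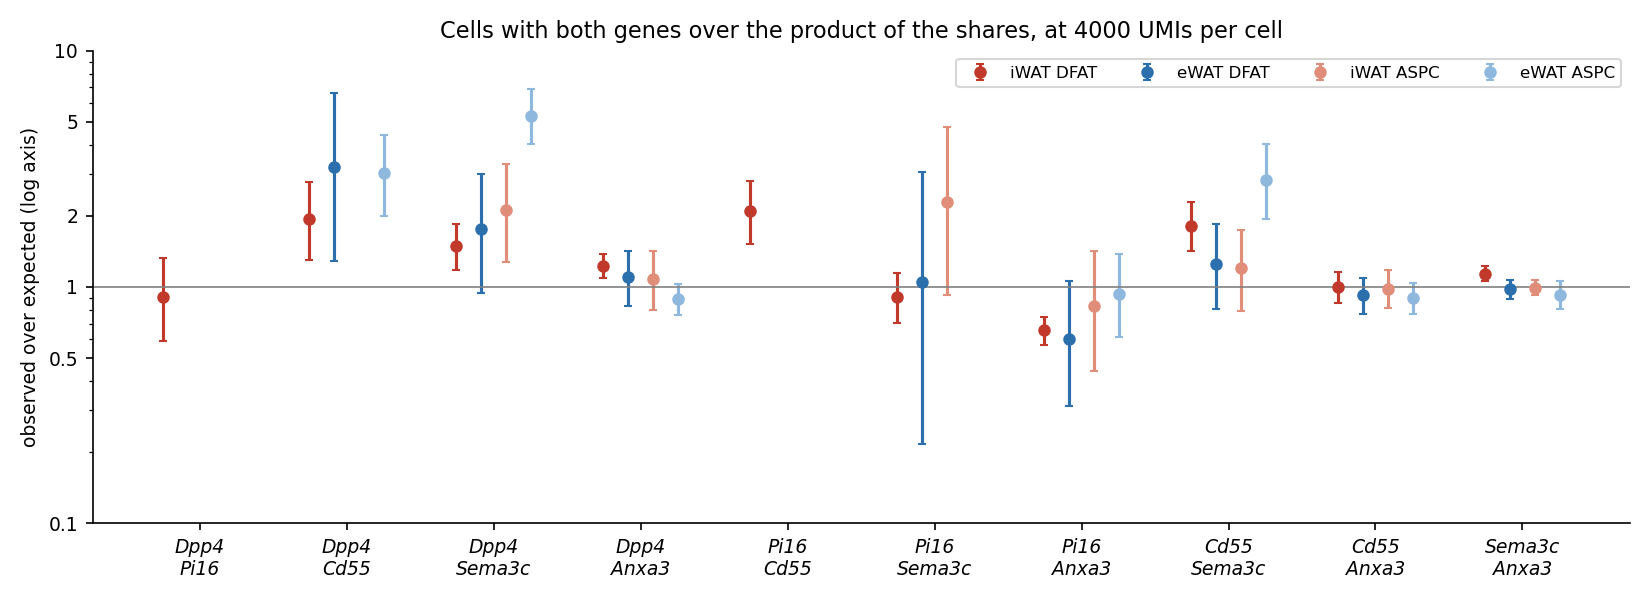
Cells with both genes of a pair over the product of the 2 shares (y axis, log scale; 1 is marked by a line) for the 10 pairs in the 4 libraries, with 95% Poisson intervals of the observed number. Pairs with fewer than 2 expected cells are left out. Dpp4 with Sema3c in eWAT ASPC stands highest among the points drawn, at 5.31, and Pi16 with Anxa3 in iWAT DFAT at 0.65.

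Counted per cell, 2 or more of the 5 genes were seen in 16.97% of iWAT DFAT cells (16.1 to 17.8), 9.81% of eWAT DFAT, 12.8% of iWAT ASPC and 8.50% of eWAT ASPC cells. Independent genes of the same shares would give 16.9%, 10.3%, 12.996% and 9.34%. At 3 or more genes the shares were 2.16%, 0.541%, 0.552% and 0.771%, where independence gives 1.69%, 0.363%, 0.362% and 0.393%. A single iWAT DFAT cell held all 5. The broad Anxa3 dominates such counts, and without it 2 or more of the other 4 were in 3.47%, 0.712%, 0.754% and 1.33% of cells, where independence gives 2.83%, 0.510%, 0.483% and 0.494%.

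Cells with 2 or more of the 5 genes were then set against cells with none for the other listed genes. Of 18 committed preadipocyte genes, 17 had 20 or more UMIs in the cells with 2 or more members of each library, and 7 were lower in all 4 libraries, 1 (Icam1) was higher in all 4 and 9 went both ways. That is 41.2% lower and 5.88% higher, beside 8.97% and 17.4% of the 11741 other genes with as many UMIs. All these counts go by sign alone, and Icam1 differed by only 0.009 in iWAT DFAT. Of 22 early progenitor genes, 18 did, and 8 were higher in all 4, which is 44.4% beside the same 17.4%, 0 lower in all 4 and 10 went both ways. The committed preadipocyte genes lower in all 4 with the largest differences were Fabp4, a fatty acid carrier, Cxcl14, a chemokine, and Col15a1, a basement membrane collagen. Fabp4 differed by -1.47 (log2) in iWAT DFAT, -1.87 in eWAT DFAT, -1.19 in iWAT ASPC and -0.87 in eWAT ASPC. Cxcl14 differed by -1.98, -0.72, -0.70 and -1.501, and Col15a1 by -1.85, -1.14, -1.68 and -0.67. The semaphorin genes Sema3e and Sema3d were higher in all 4, by 0.79 to 1.82 and by 0.61 to 0.97. In eWAT ASPC 172 of the 573 cells with 2 or more members had 3 or more markers of another cell type, which is 30.02%, against 10.3% of the cells with none, and Krt19, an epithelial and mesothelial keratin, was higher by 2.78 there. In the other libraries the order was reversed. Such cells were 0.309% of those with 2 or more members in iWAT DFAT, against 1.30% of those with none. The shares were 4.26% against 8.08% in eWAT DFAT and 2.21% against 5.49% in iWAT ASPC. The part of such cells in the differences above was not tested.

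Anxa3 was then left out, which leaves 265, 46, 56 and 90 cells with 2 or more of the other 4 members. Of the 90 in eWAT ASPC 66 had 3 or more markers of another type, 73.3% against 5.36% of the cells with none, and their part in the eWAT ASPC values was not tested. There were 0, 3 and 1 in the other libraries. In the order iWAT DFAT, eWAT DFAT, iWAT ASPC and eWAT ASPC, Fabp4 differed by -0.17, -1.09, -1.11 and -1.67, Cxcl14 by -1.32, -1.48, -0.46 and -1.48, and Apoe, a lipid carrier, by 0.40, 0.64, 0.32 and 3.52. With Anxa3 counted, Apoe had differed by -1.16, -2.27, -0.41 and 1.20, so its direction turned in 3 of 4 libraries. Of 8 committed preadipocyte genes with 20 or more UMIs there, 3 were lower in all 4 libraries, 1 (Apoe) was higher in all 4 and 4 went both ways. The share lower was 37.5% and the share higher 12.5%, beside 12.7% and 18.6% of 6269 other genes. Of 11 early progenitor genes, 4 were higher in all 4, which is 36.4%, 0 were lower in all 4 and 7 went both ways. Col15a1 had 12 UMIs in iWAT ASPC and 3 in eWAT ASPC in these cells, too few for the count. Sema3d was at -0.98 in iWAT DFAT, on 2 UMIs, and Sema3e at 0.0069 in eWAT DFAT, so neither was clearly higher in all 4 without Anxa3.

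The genes most like each member across cells, when all 4 libraries are asked for, were weakly related to it, except for Anxa3. Likeness was the lowest Pearson correlation over the 4 libraries of log counts per cell, among 12642 genes. All genes of a library share its cells and their depth, and correlations of sparse genes are small by construction, so these values only describe. Dpp4 had no gene at 0.1 or more. In single libraries the values were higher, with Dpp4 at 0.65 to Cxadr and Gpm6a and Sema3c at 0.55 to Tmem108 in eWAT ASPC, and Pi16 at 0.42 to C3 in iWAT DFAT. Over all 4, Pi16 had Lbp, the lipopolysaccharide binding protein, at 0.16. Cd55 had Flrt2, an adhesion protein, at 0.18, Gm16083, which overlaps its 5′ end, at 0.13, and Cgnl1 at 0.12. Sema3c had Celf2 at 0.15, and Pdpn and Sema3a at 0.14. Anxa3 had Actb at 0.40, Anxa1 at 0.39 and Tpm1 at 0.36, so the cytoskeletal genes Actb and Tpm1 were among its nearest.

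A wider list of 22 early progenitor genes was described beside the 5 members, and 18 were at 1 CPM or more in the higher library of each comparison. In iWAT DFAT over eWAT DFAT, 8 were 2-fold or more higher and 1 lower, shares of 44.4% and 5.56% beside 9.44% and 6.05% of all genes, with a median of 0.75. Ly6c1 and Ly6a, surface antigens of stromal progenitors, differed by 5.76 and 4.41, Ackr3, a chemokine scavenger receptor, by 5.07, and Pcolce2 by -2.18. In this comparison the wider list leaned the same way as Dpp4 and Pi16. The 8 adipose stromal markers also summed to more in iWAT DFAT, 7116 CPM against 2371 in eWAT DFAT. Their part in the list's values was not tested. Among ASPCs, 4 were higher in iWAT (Opcml 2.08, Ly6c1 1.57 and Wnt2 1.32 the largest) and 2 lower (Pcolce2 -2.34 and Smpd3 -1.44), with a median of -0.25, shares of 22.2% and 11.1% beside 5.09% and 5.45%.

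Within iWAT, the list was split, with 6 higher in DFAT cells and 5 lower (33.3% and 27.8%, beside 11.4% and 7.23% of all genes) and a median of 0.12. Tnfaip6 was higher by 3.64, Ackr3 by 2.48 and Ly6c1 by 1.86, while Limch1 differed by -4.30, Fn1 by -1.08 and Igfbp6 by -1.05. Dpp4 and Pi16 were thus higher in iWAT DFAT together with some listed genes and against others. Within eWAT, 1 was higher in DFAT cells (Wnt2 2.77) and 9 lower (5.56% and 50%, beside 8.98% and 8.15%), with a median of -1.09. The 8 adipose stromal markers summed to 2371 CPM in eWAT DFAT and to 6916 in eWAT ASPC, and their part in the list's values was not tested. Limch1 differed by -4.45, Ackr3 by -3.03 and Cd248 by -2.66, the same direction as Dpp4 and the opposite of Sema3c.

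Genes of the later, committed state did not run opposite to the members in iWAT. Of 18 committed preadipocyte genes, 10 were higher in iWAT DFAT than in iWAT ASPC, led by C3 (4.95), Cd36 (3.51) and Ggt5 (3.02), and 4 were lower, led by Cxcl14 (-3.55), Dlk1 (-2.33) and Col4a2 (-1.39), with a median of 1.12. Those are shares of 55.6% and 22.2%, beside 11.4% and 7.23% of all genes. The same list had 6 higher and 2 lower in eWAT DFAT over eWAT ASPC, with a median of 0.35, or 33.3% and 11.1% beside 8.98% and 8.15%. It had 3 higher and 3 lower between the DFAT libraries, with a median of -0.12 (16.7% each, beside 9.44% and 6.05%), and 3 higher and 7 lower between the ASPC libraries, with -0.15 (16.7% and 38.9%, beside 5.09% and 5.45%). Within iWAT, the 8 adipocyte markers summed to 26.7 CPM in DFAT cells and to 2.46 in ASPCs. Within eWAT they summed to 107 and 3.43 CPM. Their part in the values of the committed list was not tested. Of 7 detected genes of anti-adipogenic regulatory cells, 2 were higher and 3 lower in iWAT DFAT over iWAT ASPC, and 0 higher and 5 lower in eWAT DFAT over eWAT ASPC. With 7 genes, 1 gene is a share of 14.3%, above every share over all genes. Between depots 2 were higher and 2 lower among DFAT cells, and 1 higher and 1 lower among ASPCs.

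For Sema3c, 8 receptor genes were described with the ligand. Nrp2, a neuropilin, was higher in DFAT cells by 1.69 in iWAT and 1.13 in eWAT, and Plxna4, a plexin, differed by -2.25 and -2.69. Plxnd1 was higher by 2.36 in iWAT DFAT over iWAT ASPC and by 1.40 in iWAT DFAT over eWAT DFAT. None of the 8 was 2-fold apart between the ASPC libraries, where Sema3c itself differed 4.07-fold. Of all genes 5.09% were higher and 5.45% lower there, and with 8 genes a count of 0 is near those shares. The counts were 1 higher and 0 lower between DFAT libraries, 2 and 1 within iWAT and 1 and 1 within eWAT, where 1 of 8 is a share of 12.5%, above every share over all genes.

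Relatives of the 5 members were described in the same way. Of 30 family genes, 24 or 25 were at 1 CPM or more, with 2 higher and 4 lower in iWAT DFAT over eWAT DFAT, 1 and 1 among ASPCs, 3 and 5 within iWAT, and 4 and 8 within eWAT. The shares higher were 8.33%, 4.17%, 12% and 16%, beside 9.44%, 5.09%, 11.4% and 8.98% of all genes, and the first 3 were near them. The shares lower were 16.7%, 4.17%, 20% and 32%, beside 6.05%, 5.45%, 7.23% and 8.15%. Sema3d, a class 3 semaphorin like Sema3c, was at 0.642 CPM in iWAT DFAT, 4.51 in eWAT DFAT, 19.1 in iWAT ASPC and 37.1 in eWAT ASPC, so it was lowest where Dpp4 and Pi16 were highest. Cd59a, a complement inhibitor like Cd55, was at 2.22, 15.9, 37.9 and 34.0 CPM. Fap, the paralogue of Dpp4, was at 19.99, 8.90, 10.4 and 5.99 CPM, and did not share the high value of Dpp4 in eWAT ASPC. Glipr1, of the CAP family with Pi16, was at 1.54, 7.18, 15.4 and 13.4 CPM, the opposite order of Pi16 with respect to iWAT DFAT.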

How the data were processed

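Cultured DFAT cells and SVF-derived ASPCs of iWAT and eWAT were detached with trypsin, sorted with 7-AAD and run on the 10x 3′ kit v3.1, 1 library per group. The deposited matrices hold raw UMI counts per gene and droplet, empty droplets included. Per the submitters' processing notes, the authors counted reads with Cell Ranger 7.0.0 on mm10, and the methods state that introns were included. The file headers name Cell Ranger 7.1.0 for 3 libraries and Cell Ranger 4 for iWAT ASPC. The free RNA and doublet removal that the authors describe is not in the deposited counts.

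Cells had 5000 to 75000 UMIs, 200 to 7500 genes and under 10% mitochondrial UMIs. The lower UMI limit of the methods, 500, would keep 7353 to 7843 cells per library, or 6988 in eWAT DFAT. The cells held 183664704 to 199357348 UMIs per library, and 3 counts, set as a floor, correspond to 0.0150 to 0.0163 CPM. UMIs were summed over cells, scaled to CPM, and given exact Poisson intervals. Ratios had conditional binomial intervals and shares exact Clopper-Pearson intervals. For detection, each cell was thinned at random to 4000 UMIs. Cells were classed by 3 or more of 8 thinned markers, since no annotation of cells was used. Doublets were not removed; leaving out the top 5% of cells by UMIs was an alternative.

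Genes at 1 CPM or more in the higher library entered a comparison, and a gene was counted at 2-fold or more. The members were named in full, list genes by the 3 largest ratios per direction, and like genes by the lowest correlation over libraries, at 0.1 or more. For cells with 2 or more of the 5 members, the 5 list genes with the largest ratio in one direction in all libraries were named. Without Anxa3 these genes were followed and Apoe was added, and the largest ratios of that set were not named. Members and lists were chosen with earlier results of these data known. Other relatives and marker genes given by level were chosen after their values were seen. TMM factors came from edgeR 4.0.16 in R 4.3.3, other values from pandas 2.3.3, scipy 1.17.1 and numpy 2.4.6 in Python 3.11.15, and gene positions from GENCODE M21. The ratio code was tested on simulated data. Alternatives concerned the limits on cells, scaling, free RNA, thinning, the fold and the filter.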

Additional observations from a re-analysis of the deposited data

Results flagged for a closer look

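Several members differed in opposite directions under the same contrast in the other depot or cell source, with counting intervals that did not include 0. With 1 library per group, the difference between the contrasts was not tested. Dpp4 was higher in DFAT cells than in ASPCs of iWAT, by 3.36 on the log2 scale, and differed by -1.58 in eWAT. Cd55 differed by 1.06 in iWAT and -0.25 in eWAT. Sema3c differed by -0.0731 in iWAT, which is close to 0, and by 1.44 in eWAT.

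The contrast of iWAT with eWAT turned between DFAT cells and ASPCs for the surface and CAP family genes. Dpp4 differed by 2.36 among DFAT cells and by -2.58 among ASPCs. Pi16 differed by 4.51 and -1.09, and Cd55 by 0.51 and -0.80. Without cells carrying markers of other types the signs were unchanged for Dpp4 (-0.72 within eWAT and -1.69 between the ASPC libraries) and for Cd55 (-0.02 and -0.55). The Cd55 difference within eWAT was then close to 0.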

How the results depend on the processing

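No paired analysis was possible because each group is 1 library and the labels carry no replicate numbers, and no library could be left out for the same reason. The number of members 2-fold apart was within 1.5 times the reported one in 35 of 36 alternative values. It was 1 in place of 2 for eWAT DFAT over eWAT ASPC without cells of other types. A fall from 3 members to 2 counts as within 1.5 times, so the loss of 1 member can go unseen in this tally. Cd55 within iWAT went under 2-fold, to 0.98, with TMM scaling. Pi16 between the ASPC libraries did so, at -0.80, when each cell's own CPM was averaged. No log2 ratio of a member that was 2-fold apart changed sign under these alternatives, and Pi16 in eWAT DFAT over eWAT ASPC, at -0.21, was at 0.45 when each cell's own CPM was averaged. The share of all genes 2-fold apart was 15.5%, 10.5%, 18.7% and 17.1% in the order of the report, and 33.1%, 29.7%, 35.3% and 36.9% without a filter on low genes. With a minimum of 5 CPM it was 6.88% between the ASPC libraries. TMM scaling moved the median ratio of all genes by -0.01, -0.10, -0.08 and -0.17.

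The share of cells with 2 or more members rests on the depth per cell. For iWAT DFAT, eWAT DFAT, iWAT ASPC and eWAT ASPC it was 6.46%, 3.70%, 5.27% and 3.59% at 2000 UMIs and 62.2%, 47.0%, 49.3% and 35.8% without thinning. In eWAT ASPC it was 6.48% without cells of other types, in place of 8.50%. Without Anxa3, a choice made after seeing the data, it was 3.47%, 0.712%, 0.754% and 1.33%. Pi16 with Cd55 in iWAT ASPC, at 6 cells against 0.438, had 0 cells among those above the median number of UMIs. Thinned detection moved in 39 of 40 values, as fewer UMIs or a higher minimum must lower it. Depth limits Pi16 most, since outside iWAT DFAT it was at 117 to 246 UMIs per library.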
